A study of Mus musculus with 10 samples.

Results

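Adult dorsal skin of mice without a working Dlx4 gene was compared with skin of wild-type mice over every gene expressed at the adult age. The groups were Dlx4-KO and Dlx4-WT mice of the C57BL/6 strain at postnatal day 60 (P60), with 2 libraries of total RNA from whole dorsal skin in each group. The series title calls the wild-type mice littermates, and the labels name no treatment and no allele beside the Dlx4 genotype. A gene was taken as expressed when 2 or more of the 4 P60 libraries had a value of 1 RPKM or higher. RPKM, the unit of the authors' deposited table, is the number of reads on a gene scaled for its length and for the depth of the library. This rule kept 12561 of the 24543 entries of the deposited table. Just inside the threshold lay 181 genes whose second highest P60 value was from 1 to 1.1 RPKM, and just outside it lay 212 genes with 0.9 to 1 RPKM. Of all entries 4727 were listed at 0 in all 4 P60 libraries. The rest of the series holds 3 WT and 3 KO libraries from P1 skin, which enter here only through the estimate of the spread and through the test of a difference between ages.

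Dlx4 is a homeobox transcription factor of the distal-less family, and its neighbour Dlx3 controls how epidermis and hair follicles mature. Whole dorsal skin holds keratinocytes, hair follicles with sebaceous glands, a collagen-rich dermis made by fibroblasts, fat, vessels, resident macrophages, mast cells and T cells, and below them a thin sheet of striated muscle, the panniculus carnosus. A library of such tissue therefore mixes RNA of many cell types, and in it fewer cells of a type cannot be told apart from less RNA per cell.

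The authors listed 49936026 and 55722291 alignments for the WT and 74916106 and 55987713 for the KO libraries at P60. All 4 came from 1 sequencing run, and all P1 libraries came from another. All 4 had RNA of the Y-linked genes Eif2s3y (22.3 to 26.9 RPKM) and Ddx3y (7.47 to 8.70 RPKM), with Xist at 0.0477 to 0.105 RPKM, so sex-linked RNA did not separate the P60 groups. Replicates differed by a median of 0.17 on the log2 scale in WT and 0.159 in KO, and no gene above 0 had identical values in both. Nothing in the labels says that the replicates came from separate litters, so p-values measure only the spread between samples. In the reported setting that spread is shared over all 10 libraries, those of P1 included. As a check of the labelled tissue, Krt10, a keratin of suprabasal epidermis, had 1613 and 1630.1 RPKM in WT and 2468 and 2165 RPKM in KO. Of all RPKM the muscle lists took 15.4% and 16.5% in WT but 7.28% and 11.5% in KO. The matrix lists held 2.37% and 2.88% in WT and 9.88% and 4.61% in KO. Both shares lay farthest from WT in KO replicate 1.

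**Figure D1:**
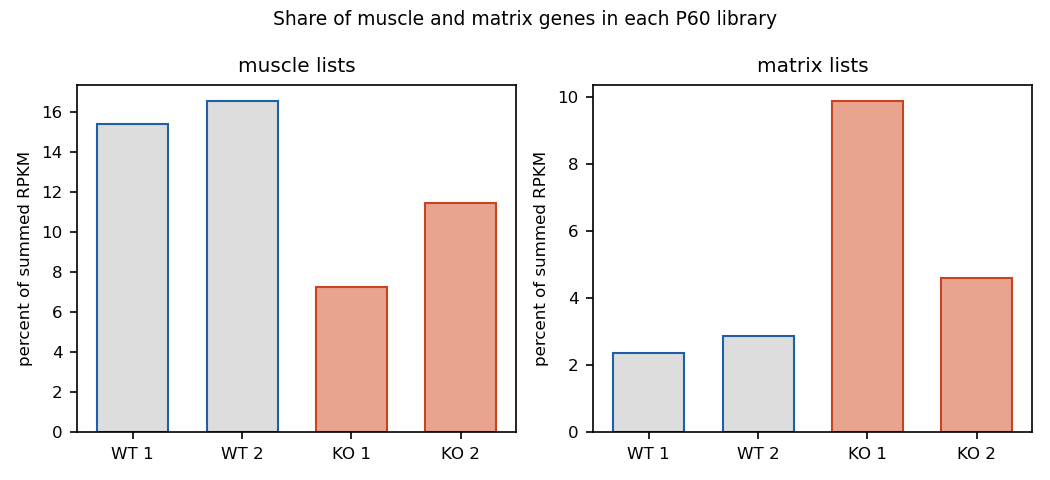
Bars give the percent of the summed RPKM of each P60 library taken by the genes of the muscle lists (left) and of the matrix lists (right), with 1 bar for each library and the WT libraries in grey. Both KO libraries lie below both WT libraries for muscle and above them for matrix, and KO 1 lies farther from WT than KO 2 on both.

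The targeted gene could not serve as a check of the genotypes at this age. Dlx4 had 0 and 0.125 RPKM in WT and 0.000294 and 0 RPKM in KO, where 3 alignments over its 2282 bp of exons correspond to 0.0175 to 0.0263 RPKM in the 4 libraries. Its antisense transcript Dlx4os had 0.293 and 0.384 RPKM in WT and 0.0268 and 0 RPKM in KO. Strand was not stated to be used in counting, so reads of Dlx4 and Dlx4os may not be separable. Both lay under the expression rule at P60. Their P1 values brought them into the fit described below, but their result at P60 is not reported here. Of the 10 Dlx entries only Dlx3 and Dlx5 met the rule at P60. Dlx3 had 4.96 and 3.69 RPKM in WT and 4.80 and 4.24 RPKM in KO, and these ranges overlapped. Its log2 change of 0.07 (SE 0.16) changed sign under other scalings and when WT replicate 2 or KO replicate 1 was left out. Dlx5, which is active in bone and craniofacial development, had 3.62 and 2.72 RPKM in WT and 4.33 and 4.82 RPKM in KO, with a log2 change of 0.48 (SE 0.17) and an adjusted p of 0.0865 in limma, so it was not called.

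The test behind the word "called" was limma on log2(RPKM + 0.5), fitted to all 10 libraries with a mean for each group and adjusted with the Benjamini-Hochberg method over 14026 genes. A gene was called at an adjusted p under 0.05, and "rose" and "fell" are used only for called genes. The scale understates changes of genes with low values. In KO skin 1123 of the 12561 genes rose (8.94%) and 407 fell (3.24%), and in each of these 1530 genes the KO and WT libraries did not overlap. Over all 14026 genes tested 8.21% were called higher and 2.91% lower. At an unadjusted p under 0.05 there were 4306 genes, and the smallest adjusted p was 0.0115. Over all 12561 genes the median log2 change was 0.125, from -0.55 at the 5th to 0.786 at the 95th percentile. The 95% interval of a change reached, in the median gene, 0.335 to either side. Both KO libraries lay above both WT libraries in 5388 genes (42.9%) and below them in 2539 (20.2%).

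The number of calls rested on few libraries. It was 0 when the 4 P60 libraries were fitted alone, where the smallest adjusted p was 0.197 and 3080 genes (24.5%) had an unadjusted p under 0.05. It was also 0 without KO P60 replicate 1 and without KO P1 replicate 2, and 1 without WT P60 replicate 1. It was 3 without WT P1 replicate 1 and 29 without KO P1 replicate 3. Leaving out WT P60 replicate 2 gave 677 higher and 75 lower, KO P1 replicate 1 gave 487 and 139, WT P1 replicate 2 gave 803 and 262, WT P1 replicate 3 gave 1691 and 677, and KO P60 replicate 2 gave 1252 and 767. The balance of directions depended on scaling. As deposited 73.4% of calls were higher, with median-of-ratios size factors 436 genes were higher and 1052 lower (29.3% higher), with quantile normalization 19 and 36, and with libraries rescaled to the genes outside muscle 879 and 458. The median over all genes was 0.125 as deposited, -0.0215 with median-of-ratios size factors, -0.006 with quantile normalization and 0.108 without muscle genes in the scaling. All 1530 called genes kept the sign of their change in each of the 22 alternatives run. Only the scalings could have changed it. Where the groups do not overlap, the sign stays the same when a library is left out or another setting is changed. The authors' deposited table gave a p-value for 12541 of these genes, of which 1062 were under 0.05 and 0 had a q-value under 0.05, and 563 of the called genes were among the 1062. The terms of the model behind those p-values are not stated in its headers. Among the genes described below as called in most alternatives, Slc25a33, Ecsit and Fam8a1 were among the 563. Spred2, Mpzl3, Clca3a2, Lmod2 and Pygl were not, and neither was Chac1.

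**Figure D2:**
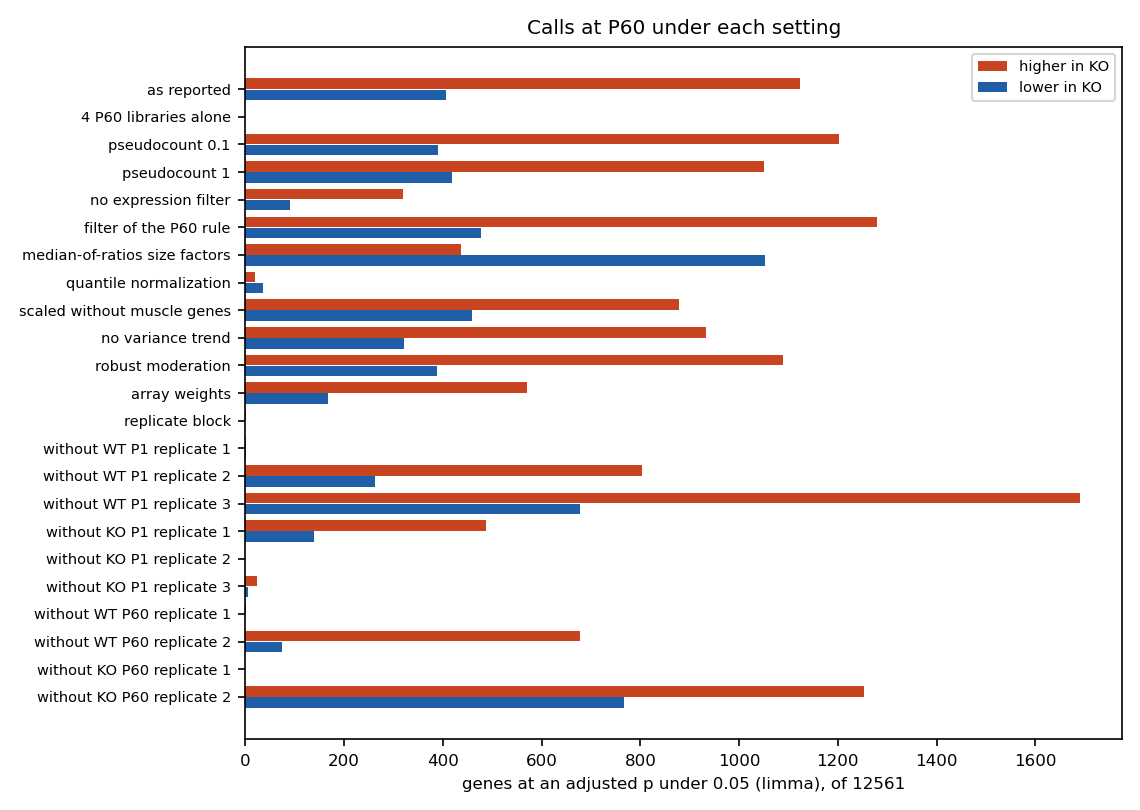
Horizontal bars count the genes called higher (red) and lower (blue) in KO at P60 under the reported setting and each of the 22 alternatives. The count goes from 1691 higher without WT P1 replicate 3 to 0 in both directions with the 4 P60 libraries alone, without KO P1 replicate 2 and without KO P60 replicate 1.

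**Figure D3:**
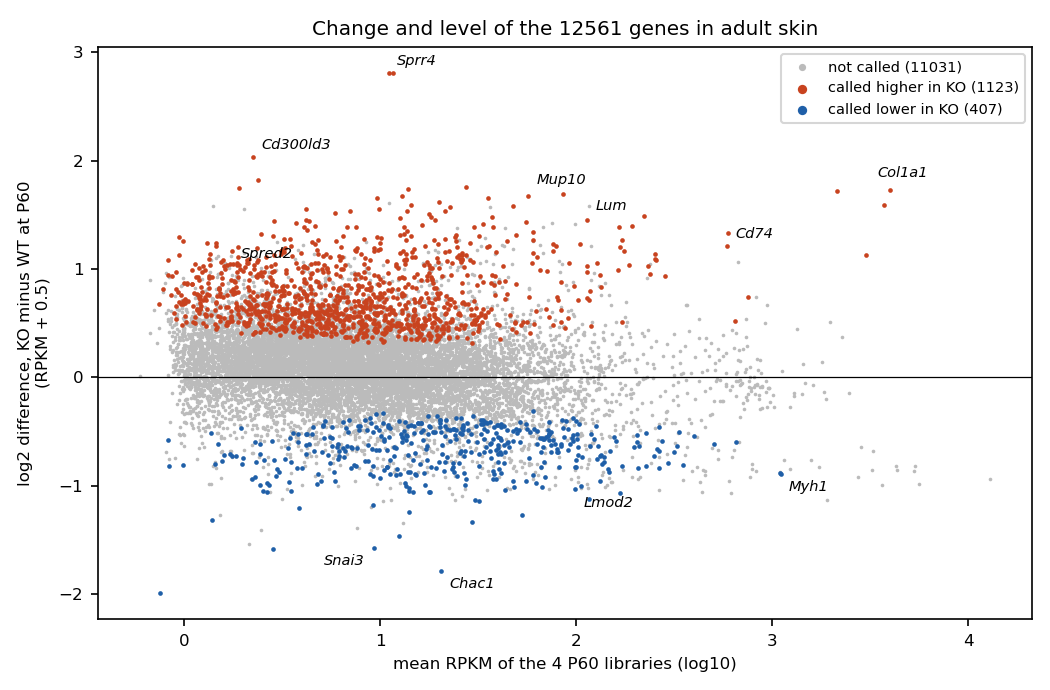
Each point is 1 of the 12561 genes, with the log10 of its mean RPKM over the 4 P60 libraries on the x axis and its log2 change, KO minus WT, on the y axis. Called genes are red (1123 higher) and blue (407 lower), and Chac1 at -1.79 and Sprr4 at 2.81 are among the points farthest from 0.

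The dermal matrix was the most uniform group that rose. Of 138 expressed genes in the matrix lists 134 were higher in KO, 70 rose and 0 fell. Over all genes 65% were higher in value, 8.94% rose and 3.24% fell. The lists were written with earlier results of these data known, so these counts describe the lists and test nothing. Collagens are secreted as triple helices, trimmed by proteases outside the cell and cross-linked by lysyl oxidases, and proteoglycans and elastic fibres bind to them.

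In the list of fibrillar and associated collagens 11 of 15 genes rose and 0 fell (median log2 change 1.21, against 0.125 over all genes). Col1a2, a chain of type I collagen, had 1576 and 1845 RPKM in WT and 8262 and 3198 RPKM in KO. Its log2 change was 1.59 (SE 0.35, adjusted p = 0.0335 in limma), or 3.01-fold. Col6a1, a chain of the beaded microfibrils of type VI collagen, had 50.3 and 73.5 RPKM in WT and 177 and 116 RPKM in KO (log2 change 1.23, SE 0.23). In both genes the groups did not overlap, and KO replicate 1 was well above KO replicate 2. Among basement membrane genes 8 of 18 rose and 0 fell, with a median of 0.607. Lamb1, a laminin chain, had 4.63 and 6.26 RPKM in WT and 9.41 and 9.76 RPKM in KO (log2 change 0.78, SE 0.14). Here the KO libraries were nearly equal.

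Enzymes that process collagen rose with it, in 11 of 20 genes with 0 that fell (median 0.931, and 0.573 without KO P60 replicate 1). Loxl2, a lysyl oxidase that cross-links collagen, had 8.40 and 13.4 RPKM in WT and 44.8 and 23.8 RPKM in KO. Its log2 change was 1.58 (SE 0.27, adjusted p = 0.0278 in limma). Plod1, a lysyl hydroxylase that prepares collagen for cross-links, changed less, from 13.9 and 16.7 RPKM to 37.96 and 23.2 RPKM (log2 change 0.94). Small leucine-rich proteoglycans, which coat collagen fibrils, rose in 8 of 10 genes with 0 that fell (median 1.18). Dcn, the gene of decorin, had 254 and 413 RPKM in WT and 1114 and 601 RPKM in KO (log2 change 1.34, SE 0.28), and Lum, the gene of lumican, reached 1.45 (SE 0.31).

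Elastic fibre genes rose in 9 of 16 cases and fell in 0 (median 0.961). Efemp1, a fibulin, had 12.98 and 21.3 RPKM in WT and 44.0 and 36.3 RPKM in KO (log2 change 1.24, SE 0.21), and Fbn1, the fibrillin of microfibrils, reached 1.41 (SE 0.29). Matricellular glycoproteins rose in 10 of 19 genes and fell in 0 (median 0.759), with Thbs2, a thrombospondin, at 1.19 (SE 0.24) and Sparc, a collagen-binding protein of high level, at 1.13 (SE 0.27). Proteases of the matrix and their inhibitors rose in 9 of 22 genes and fell in 0 (median 0.79). Among them Fap, a surface protease of activated fibroblasts, had 2.46 and 2.90 RPKM in WT and 4.84 and 4.47 RPKM in KO (log2 change 0.70, SE 0.12). Adamts12 reached 0.89 (SE 0.15), Htra1, a secreted serine protease, 0.88 (SE 0.16), and Mmp27, a matrix metalloprotease, 1.38 (SE 0.27). Genes of both synthesis and breakdown of matrix were thus among those that rose.

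Fibroblasts make the dermal matrix, and the list of their lineage shares genes such as Fbn1 with the matrix lists. All 22 of its genes were higher in value (against 65% of all genes), 6 rose and 0 fell (median 0.667). Pdgfrb, a receptor for platelet-derived growth factor, had 7.14 and 8.98 RPKM in WT and 18.2 and 11.5 RPKM in KO (log2 change 0.81, SE 0.19). Cd34, which marks dermal fibroblasts, vessels and follicle bulge cells, reached 0.85 (SE 0.16). Of the TGF-beta list, whose ligands drive collagen synthesis, 3 of 18 genes rose and 0 fell (median 0.293, 0.155 with median-of-ratios size factors, 0.104 with quantile normalization, and 0.445 without WT P60 replicate 1 or without KO P60 replicate 2). The receptor gene Tgfbr2 had 18.4 and 26.0 RPKM in WT and 48.1 and 37.1 RPKM in KO (log2 change 0.94, SE 0.16). Outside these lists Cpz, an extracellular carboxypeptidase, had 34.3 and 40.5 RPKM in WT and 190.1 and 77.8 RPKM in KO (log2 change 1.69, SE 0.33). C1qtnf3, a secreted protein of the C1q and TNF family, reached 1.68 (SE 0.40). Muscle genes took less of the same KO libraries (7.28% and 11.5%, against 15.4% and 16.5% in WT). With muscle genes left out of the scaling the median of the fibrillar list was 1.19, and without KO P60 replicate 1 it was 0.907. That scaling divides all genes of a library by the same factor, so the part of the muscle share in these results was not tested.

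The promoters of 3 genes are shown for the sequence context of the changes: Col1a2 for the rise of collagen, Myom1 for the fall of the sarcomere, and Chac1 for the largest fall of a protein-coding gene. Each is 300 bases long, most of it upstream of the start of the gene, and lies on the plus strand of GRCm38.p6 (RefSeq). In Col1a2 (chr6:4505368-4505667) capitals mark CCAAT, the letters bound by nuclear factor Y, on either strand. In Myom1 (chr17:71019307-71019606), an M-band protein of the sarcomere that fell, capitals mark a CArG box, the site of serum response factor. In Chac1 (chr2:119350992-119351291) capitals mark CCAAT and, once on the minus strand, TGATGCAA, the form bound by ATF4 partners.
Col1a2: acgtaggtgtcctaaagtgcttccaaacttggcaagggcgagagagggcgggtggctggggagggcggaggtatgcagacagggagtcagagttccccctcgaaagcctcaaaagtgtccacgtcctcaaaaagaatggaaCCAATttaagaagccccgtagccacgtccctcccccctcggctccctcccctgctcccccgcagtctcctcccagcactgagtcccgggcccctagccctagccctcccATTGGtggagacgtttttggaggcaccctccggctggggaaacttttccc
Myom1: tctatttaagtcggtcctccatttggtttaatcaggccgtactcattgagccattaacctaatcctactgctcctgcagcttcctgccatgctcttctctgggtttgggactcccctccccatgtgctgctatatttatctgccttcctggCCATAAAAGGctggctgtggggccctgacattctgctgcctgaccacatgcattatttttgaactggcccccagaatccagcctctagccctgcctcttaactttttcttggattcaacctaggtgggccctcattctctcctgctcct
Chac1: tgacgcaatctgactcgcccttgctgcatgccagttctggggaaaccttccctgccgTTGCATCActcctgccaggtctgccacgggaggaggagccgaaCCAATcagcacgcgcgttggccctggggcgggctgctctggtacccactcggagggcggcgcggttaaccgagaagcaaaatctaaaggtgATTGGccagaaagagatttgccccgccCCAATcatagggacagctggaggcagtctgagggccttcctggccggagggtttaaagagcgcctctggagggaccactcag
CCAAT occurred 2 times in the Col1a2 window and 3 times in that of Chac1, and both strands were searched for each motif. It is a common motif, present in 37.4% of the 32851 promoters in the table, while a CArG box was present in 1.63% and TGATGCAA in 0.895%. Myom1 was chosen because its window holds the motif, so these matches describe the windows and say nothing of binding.

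Genes of striated muscle were lower in KO. Of 91 expressed genes in the muscle lists 88 were lower in KO, 24 fell and 0 rose. Over all genes 35% were lower in value and 3.24% fell. The sarcomere is built of myosin thick and actin thin filaments anchored at the Z disc, and calcium released through the sarcoplasmic reticulum starts its contraction. Thick filament genes fell in 5 of 14 cases and rose in 0 (median -0.841). Myom1 had 131 and 120.2 RPKM in WT and 60.0 and 82.8 RPKM in KO (log2 change -0.83, SE 0.19, adjusted p = 0.0361 in limma). Ttn, the gene of titin, reached -0.78 (SE 0.20). Without KO P60 replicate 1 the median of this list was -0.488.

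Thin filament and Z disc genes fell in 12 of 27 cases and rose in 0 (median -0.867, and -0.572 without KO P60 replicate 1). Lmod2, a leiomodin that lengthens actin filaments, had 148 and 118 RPKM in WT and 65.8 and 63.2 RPKM in KO. Its log2 change was -1.03 (SE 0.13, adjusted p = 0.0256 in limma), and it was called in 16 of the 22 alternatives. Abra, which couples actin to transcription in muscle, had 53.7 and 31.4 RPKM in WT and 16.3 and 15.7 RPKM in KO (log2 change -1.33, SE 0.22). In both genes the KO libraries were nearly equal. Acta1, the skeletal actin and the gene of highest level, was not called, with 15884 and 17498 RPKM in WT and 6717 and 11213 RPKM in KO (log2 change -0.94, SE 0.42, adjusted p = 0.159 in limma). Its KO libraries lay apart.

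Of the calcium handling genes 1 of 19 fell, Trdn, the gene of triadin, which holds the calcium store to its release channel (log2 change -1.13, SE 0.24). Their median was -0.905, and -0.539 without KO P60 replicate 1. Genes of the neuromuscular junction and muscle membrane fell in 3 of 16 cases (median -0.74, and -0.492 without that library). The potassium channel gene Kcnc1 had 4.50 and 3.47 RPKM in WT and 1.77 and 1.97 RPKM in KO (log2 change -0.91, SE 0.17). Of the myogenic regulators and satellite cell genes 3 of 15 fell (median -0.678, and -0.307 without it), with Mef2c, a transcription factor of muscle genes, at -0.83 (SE 0.14) and the ubiquitin ligase adaptor Asb5 at -0.90 (SE 0.14). The third, Trim63, a ubiquitin ligase of muscle wasting, had 63.6 and 64.9 RPKM in WT and 30.3 and 32.9 RPKM in KO (log2 change -1.01, SE 0.25). Fbxo32, another ligase of muscle wasting that was looked up after its values had been seen, had 30.9 and 29.4 RPKM in WT and 15.0 and 14.2 RPKM in KO (log2 change -1.02, SE 0.31, adjusted p = 0.0607 in limma). For both ligases the KO libraries lay close together. The part of the muscle share in their changes was not tested.

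Genes of the metabolism lists were called mostly as falls, 32 of 121 with 3 that rose, where 3.24% of all genes fell and 8.94% rose. These lists include cholesterol synthesis, in which 1 of 23 genes rose and 0 fell. Muscle fibres burn glucose from glycogen and fatty acids in mitochondria, and nuclear genes encode most subunits of the respiratory chain. Of the glycogen and glycolysis list 7 of 27 genes fell and 1 rose (median -0.79, and -0.415 without KO P60 replicate 1). Ppp1r3c, which targets a phosphatase to glycogen, had 32.2 and 27.8 RPKM in WT and 16.2 and 17.2 RPKM in KO (log2 change -0.83, SE 0.12, adjusted p = 0.0272 in limma). Hk2, the muscle hexokinase, reached -0.79 (SE 0.16). The member that rose was Pgm1, listed as a phosphoglucomutase, at 0.56 (SE 0.14). Outside the list Pygl, the liver form of glycogen phosphorylase, had 6.47 and 6.76 RPKM in WT and 11.8 and 11.5 RPKM in KO (log2 change 0.77, SE 0.10) and was called in 16 of the 22 alternatives.

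All 43 genes of the nuclear-encoded respiratory chain and citric acid cycle were lower in KO, against 35% of all genes. Of them 22 fell and 0 rose, and in 42 both KO libraries lay below both WT libraries (20.2% of all genes). Their median was -0.589, and -0.395 without KO P60 replicate 1. Ndufs3, a subunit of complex I, had 121 and 129 RPKM in WT and 63.8 and 84.6 RPKM in KO (log2 change -0.76, SE 0.13, adjusted p = 0.0278 in limma). Atp5a1, a subunit of ATP synthase, reached -0.54 (SE 0.13). Slc25a33, a mitochondrial pyrimidine carrier, had 11.9 and 14.1 RPKM in WT and 5.04 and 5.86 RPKM in KO (log2 change -1.18, SE 0.17), and Ecsit, an assembly factor of complex I, had 34.3 and 32.3 RPKM in WT and 18.5 and 21.4 RPKM in KO (log2 change -0.73, SE 0.10). Both were called in 16 of the 22 alternatives. Fatty acid oxidation genes fell in 3 of 28 cases and rose in 1 (median -0.391, and -0.23 without KO P60 replicate 1). The gene that rose, Cpt1a, encodes the carnitine transferase found outside muscle (0.73, SE 0.16). Ppargc1a, a coactivator of mitochondrial genes, fell by 0.61 (SE 0.16), from 2.05 and 1.76 RPKM to 0.992 and 1.15 RPKM. Of the 407 genes that fell 24 were in a muscle list and 383 were not. The muscle lists hold only 91 of the 12561 genes, and genes of other lists, such as Hk2, are also active in muscle. This split therefore does not give the share of muscle among the falls.

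**Figure D4:**
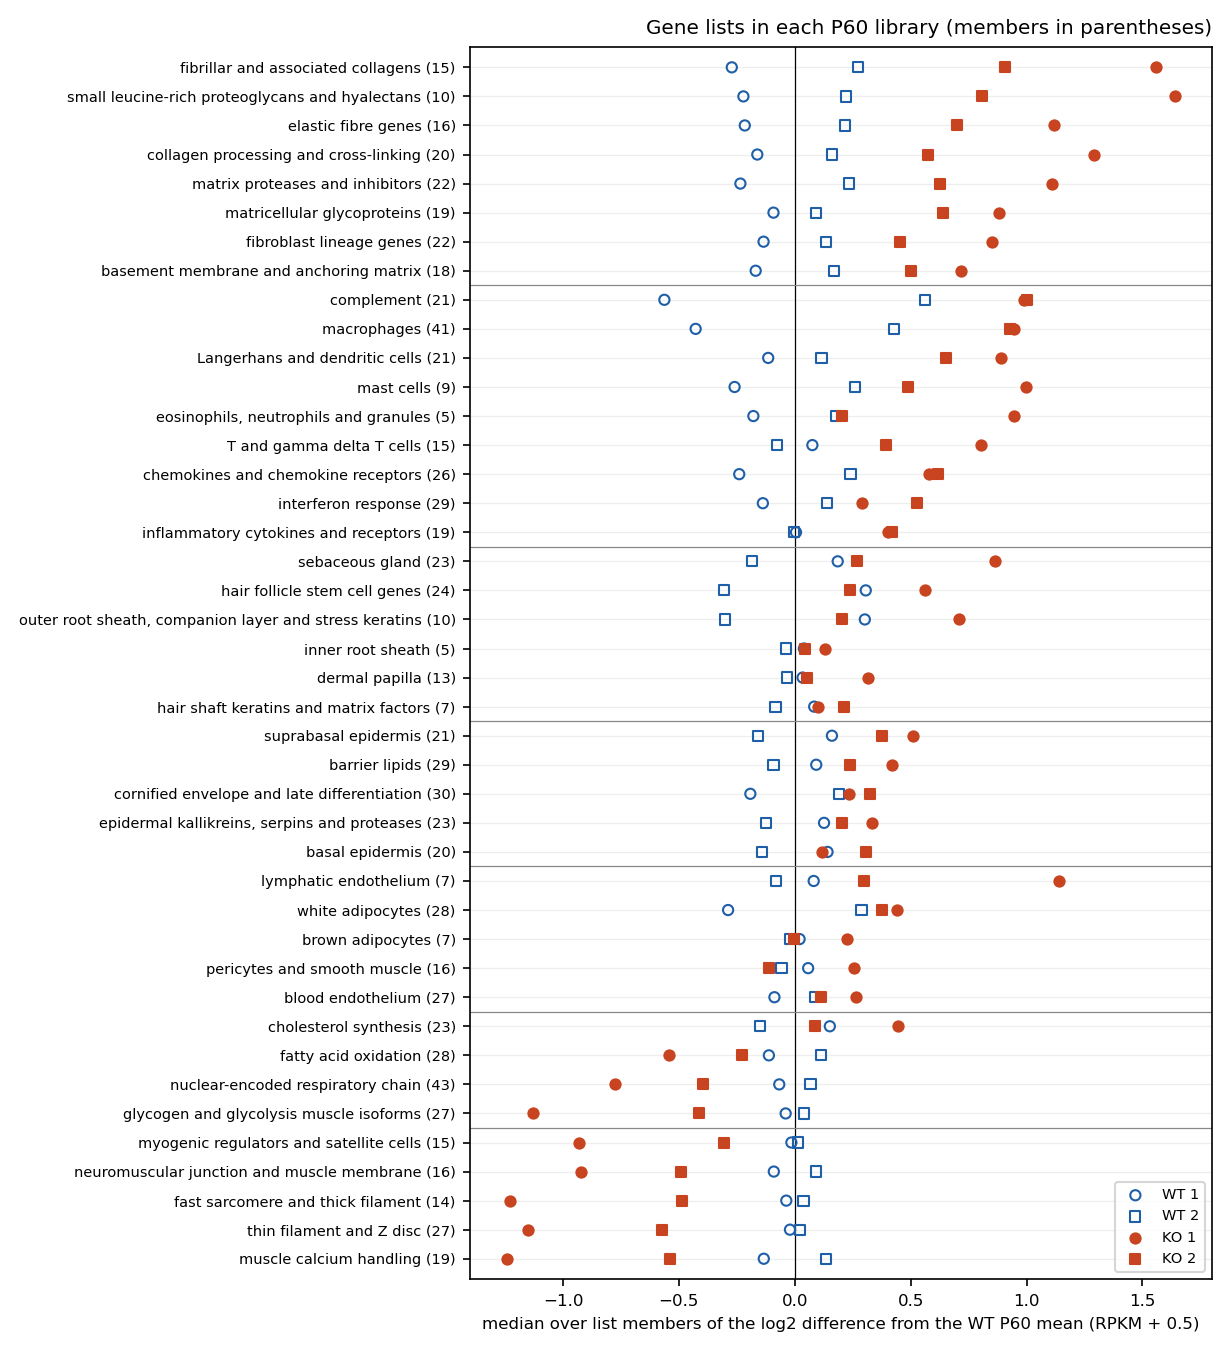
Rows are gene lists, with the number of expressed members in parentheses, and symbols give for each P60 library the median over members of the log2 difference from the WT mean. The 2 WT symbols lie at equal distance on either side of 0 because that mean is theirs, both KO libraries lie right of both WT libraries in every matrix list and left of them in every muscle list, and KO 1 lies farther out in these.

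Genes of immune cells were higher in KO as a broad group. Of 180 expressed genes in the immune lists 169 were higher, 47 rose and 0 fell. Over all genes 65% were higher in value, 8.94% rose and 3.24% fell. Dermal macrophages clear debris and present antigen, mast cells store proteases, and complement proteins coat targets for uptake. The macrophage list had 14 of 41 genes that rose and 0 that fell (median 0.97). Ccr2, the receptor that draws monocytes into tissue, had 1.25 and 2.39 RPKM in WT and 6.62 and 4.65 RPKM in KO (log2 change 1.43, SE 0.26, adjusted p = 0.0308 in limma). Adgre1, the F4/80 antigen, had 2.42 and 4.47 RPKM in WT and 12.1 and 9.13 RPKM in KO (log2 change 1.53, SE 0.24). The medians of this list stood at 0.946 and 0.929 in the KO libraries and at -0.428 and 0.428 in WT, so here the WT libraries lay apart and the KO libraries did not. Without WT P60 replicate 1, the lower of the WT libraries, the median over the list was 0.491, and it was 1.46 when WT P60 replicate 2 was left out.

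Receptors chosen after their values had been seen showed some of the widest gaps between the nearest KO and WT libraries. Cd180, a Toll-like receptor homologue, had 0.399 and 0.408 RPKM in WT and 1.55 and 1.41 RPKM in KO (log2 change 1.13, SE 0.21). Clec7a, the receptor for fungal beta-glucan, had 0.682 and 0.633 RPKM in WT and 2.54 and 1.96 RPKM in KO (log2 change 1.24, SE 0.23). Tnfrsf14, the herpesvirus entry mediator, had 1.01 and 1.39 RPKM in WT and 3.82 and 3.65 RPKM in KO (log2 change 1.32, SE 0.20). In all 3 both KO libraries were above both WT libraries. Cd180 and Clec7a were under 1 RPKM in both WT libraries and met the expression rule only through the KO libraries. The rule thus favoured higher KO values in them. A gap of over 1 on the log2 scale was found in 11 genes that were higher (0.0876%) and 7 that were lower (0.0557%), a measure added after the data were seen, and it held for 37 and 12 genes with a pseudocount of 0.1, 4 and 5 with a pseudocount of 1, 6 and 15 with median-of-ratios size factors, and 2 and 8 with quantile normalization. Cd300ld3 (log2 change 2.03), Rnase2b (1.82) and Srp54b (1.75) were also among the 11, but each has close copies and its share of reads is uncertain.

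Antigen-presenting cells followed. In the list of Langerhans and dendritic cells 10 of 21 genes rose and 0 fell (median 0.824). Ciita, the master switch of MHC class II genes, had 0.600 and 0.753 RPKM in WT and 2.22 and 1.51 RPKM in KO (log2 change 0.99, SE 0.20). It met the expression rule only through the KO libraries. Cd74, the chaperone of class II chains, had 321 and 383 RPKM in WT and 986 and 669.7 RPKM in KO (log2 change 1.21, SE 0.29). B2m, the light chain of MHC class I, rose by less, from 597 and 521 RPKM to 986 and 883 RPKM (log2 change 0.74, SE 0.17). Complement genes rose in 7 of 21 cases and fell in 0 (median 1.02, which became 0.467 when WT P60 replicate 1 was left out and 1.61 when WT P60 replicate 2 was). C7, a component of the membrane attack complex, had 9.48 and 25.5 RPKM in WT and 72.0 and 34.9 RPKM in KO (log2 change 1.65, SE 0.41), a gene in which each group varied widely.

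Of the mast cell list 3 of 9 genes rose and 0 fell (median 0.723, which became 1.09 when WT P60 replicate 2 was left out). The mast cell carboxypeptidase gene Cpa3 had 3.32 and 5.21 RPKM in WT and 19.9 and 10.1 RPKM in KO (log2 change 1.66, SE 0.33). T and gamma delta T cell genes rose in 5 of 15 cases (median 0.588). Prf1, the pore-forming protein of killer cells, had 0.565 and 0.542 RPKM in WT and 1.40 and 1.46 RPKM in KO (log2 change 0.87, SE 0.16). Like Ciita, it met the expression rule only through the KO libraries. Of inflammatory cytokines and their receptors 5 of 19 rose (median 0.352, and 0.209 with median-of-ratios size factors). Among them Il6ra, a chain of the interleukin 6 receptor, reached 0.94 (SE 0.16). Csf2ra, a chain of the receptor for granulocyte-macrophage colony-stimulating factor, reached 1.28 (SE 0.29). Chemokines and their receptors rose in 2 of 26 cases (median 0.549, and 0.313 without WT P60 replicate 1). Interferon response genes rose in 1 of 29 cases, and the gene that did was Ifit2 at 0.64 (SE 0.15). Their median was 0.41, and 0.268 with median-of-ratios size factors, 0.26 with quantile normalization and 0.271 without WT P60 replicate 1. The shares of this list and of the chemokine list lay under the 8.94% of all genes that rose. Of the list of B and plasma cells 1 gene of 15 was expressed. The muscle share was lower in the same KO libraries, and its part in these results was not tested. With muscle genes left out of the scaling the median of the macrophage list was 0.953.

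Epidermal genes were called in both directions. Of 123 expressed genes in the epidermal lists 18 rose and 3 fell, where 8.94% of all genes rose and 3.24% fell. Medians of these lists moved by over 1.5 times with the WT libraries and with the scaling. Without WT P60 replicate 2 they were 0.0577 for basal epidermis, 0.231 for suprabasal epidermis and 0.173 for barrier lipids. Without WT P60 replicate 1 that of the cornified envelope was 0.062. With median-of-ratios size factors they were 0.0588 for basal epidermis, 0.25 for suprabasal epidermis and 0.102 for the cornified envelope. The same scaling gave 0.181 for barrier lipids and 0.088 for epidermal proteases and inhibitors. Keratinocytes move from the basal layer through suprabasal layers to the cornified envelope, whose proteins are cross-linked and sealed with ceramide-rich lipids. Basal epidermis had 1 of 20 genes that rose (median 0.216), the fibroblast growth factor receptor gene Fgfr2 (0.53, SE 0.11). Suprabasal epidermis had 3 of 21 that rose (median 0.411). Klf4, a transcription factor of barrier formation, had 83.4 and 70.8 RPKM in WT and 134 and 118 RPKM in KO (log2 change 0.71, SE 0.12, adjusted p = 0.0278 in limma). Ppl, the gene of periplakin, reached 0.49 (SE 0.10).

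In the cornified envelope list 3 of 30 genes rose and 1 fell (median 0.243). Sprr4, a small proline-rich envelope protein, had 4.32 and 0.893 RPKM in WT and 27.6 and 11.2 RPKM in KO, the largest change of a named gene (log2 change 2.81, SE 0.56). Flg2, a filaggrin-like protein, had 65.8 and 56.5 RPKM in WT and 101 and 99.2 RPKM in KO (log2 change 0.71, SE 0.15), and Casp14, the protease that processes filaggrin, reached 0.49 (SE 0.11). The gene that fell was Padi2, a peptidylarginine deiminase expressed in epidermis and muscle, with 15.4 and 21.5 RPKM in WT and 7.04 and 5.62 RPKM in KO (log2 change -1.46, SE 0.26). Barrier lipid genes rose in 8 of 29 cases and fell in 1 (median 0.336). Asah2, a ceramidase, had 2.47 and 2.27 RPKM in WT and 3.85 and 4.05 RPKM in KO (log2 change 0.63, SE 0.11). Sdr9c7, which oxidises linoleate-bearing ceramides, reached 0.60 (SE 0.11) and Abca12, a lipid transporter, 0.58 (SE 0.12). The epidermal proteases and inhibitors had 3 of 23 that rose and 1 that fell (median 0.225), with the kallikrein gene Klk10 at 1.54 (SE 0.38) and Serpinb1c, a serpin with close copies, at -1.31 (SE 0.26).

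Outside the lists Mpzl3, a membrane protein whose loss in mice causes hair loss, had 2.44 and 2.67 RPKM in WT and 7.12 and 6.22 RPKM in KO. Its log2 change was 1.23 (SE 0.15, adjusted p = 0.0256 in limma). Clca3a2, a secreted chloride channel regulator, had 38.4 and 38.6 RPKM in WT and 81.8 and 79.3 RPKM in KO (log2 change 1.06, SE 0.13). Both had replicates that differed far less than the groups and were called in 16 of the 22 alternatives. Mup10, a major urinary protein gene with close copies, reached 1.67 (SE 0.22).

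Hair follicle lists held 80 expressed genes, of which 9 rose and 0 fell, a share near the 8.94% of all genes that rose. At P60 mouse dorsal follicles are usually in their resting phase, in which hair shaft genes are low, and 1 of the 46 keratin-associated protein genes on the list and 7 of the 28 hair shaft genes met the rule. Hair follicle stem cell genes rose in 5 of 24 cases. Those that rose include Cd34, also in the fibroblast list, and Postn, also in the matricellular list. The median was 0.447, and 0.115 without WT P60 replicate 2, 0.237 without KO P60 replicate 1 and 0.287 with median-of-ratios size factors. Tcf7l1, a repressor of Wnt targets in bulge cells, had 6.83 and 8.21 RPKM in WT and 14.8 and 11.8 RPKM in KO (log2 change 0.78, SE 0.16), and Lgr6, a stem cell receptor of the isthmus, had 1.67 and 1.39 RPKM in WT and 2.47 and 2.75 RPKM in KO (log2 change 0.62, SE 0.14). Sebaceous gland genes rose in 2 of 23 cases (median 0.615, and 0.269 without KO P60 replicate 1 and 0.258 without WT P60 replicate 2). Krt80, in the list of outer root sheath and stress keratins, had 91.8 and 79.9 RPKM in WT and 152 and 146 RPKM in KO (log2 change 0.80, SE 0.16) and was the only 1 of its 10 genes that rose. Fat and vessels showed few calls. White adipocyte genes had 0 of 28 called in either direction in limma, and 7 had an unadjusted p under 0.05. Their median was 0.414, and 0.102 without WT P60 replicate 1. Blood endothelium had 1 of 27 that rose, Fli1, an ETS factor of endothelium and blood cells (0.55, SE 0.14).

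Of 133 expressed genes in the signalling lists 19 rose and 0 fell, where 8.94% of all genes rose, 3.24% fell and 73.4% of all calls were rises. Medians of these lists moved by over 1.5 times with median-of-ratios size factors, to 0.272 for FGF, IGF and EGF genes, 0.137 for hedgehog and Notch genes, 0.249 for BMP genes and 0.224 for Wnt genes. Leaving out WT P60 replicate 2 gave 0.23 for BMP genes, and leaving out KO P60 replicate 1 gave 0.238 for Wnt genes. Receptor tyrosine kinases act through MAP kinases, and Spred proteins inhibit that path. Spred2 had 2.54 and 2.47 RPKM in WT and 5.78 and 5.44 RPKM in KO. Its log2 change was 1.02 (SE 0.09, adjusted p = 0.0115 in limma), or 2.03-fold, and it was called in 17 of the 22 alternatives. Among the FGF, IGF and EGF genes 5 of 32 rose (median 0.419), and the receptor gene Erbb3 had 3.97 and 4.68 RPKM in WT and 7.95 and 8.08 RPKM in KO (log2 change 0.82, SE 0.12). In these genes both replicates of a group were close.

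Hedgehog and Notch genes rose in 5 of 22 cases (median 0.29). Notch receptors release a fragment that binds Rbpj to switch on targets. Rbpj had 6.86 and 7.01 RPKM in WT and 10.03 and 9.79 RPKM in KO (log2 change 0.49, SE 0.09), Notch2 reached 0.54 (SE 0.10), and Boc, a hedgehog co-receptor, 0.66 (SE 0.16). Of the BMP list 4 of 26 rose (median 0.405), among them the signal transducer gene Smad1 (0.43, SE 0.12), the antagonist gene Sostdc1 (0.54, SE 0.14) and Fstl1, a secreted follistatin-like protein (1.05, SE 0.24). Of the Wnt list 2 of 36 rose (median 0.358), a share under that of all genes, the receptor gene Fzd10 (0.41, SE 0.10) and the antagonist gene Sfrp4 (1.06, SE 0.29). Apcdd1, a membrane inhibitor of Wnt that was not on the list, had 17.7 and 18.4 RPKM in WT and 45.5 and 33.1 RPKM in KO (log2 change 1.08, SE 0.14). Wasf2, which drives branched actin, had 7.595 and 8.95 RPKM in WT and 18.4 and 17.5 RPKM in KO (log2 change 1.08, SE 0.12). Fam8a1, a membrane protein of the degradation path of the endoplasmic reticulum, had 1.51 and 1.70 RPKM in WT and 4.51 and 3.71 RPKM in KO (log2 change 1.13, SE 0.11) and was called in 17 of the 22 alternatives.

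**Figure D5:**
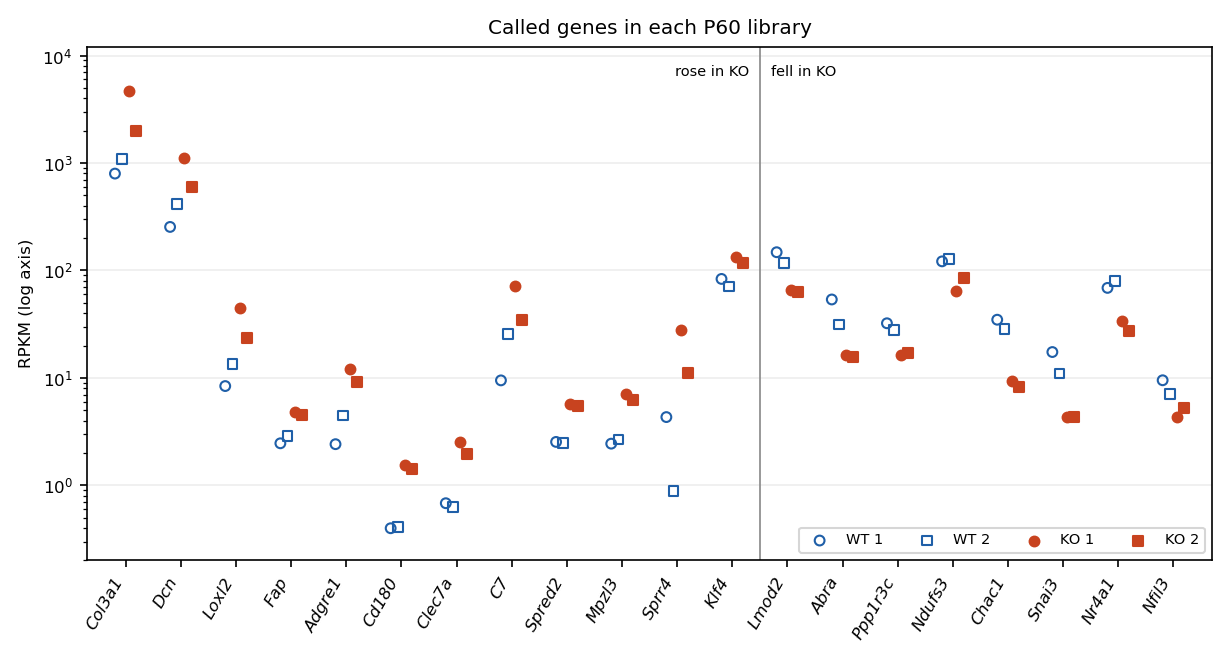
RPKM on a log axis of 20 called genes in each of the 4 P60 libraries, with WT as open and KO as filled symbols and replicates 1 and 2 as circles and squares. KO and WT do not overlap in any of them, replicates nearly coincide in Spred2, Mpzl3 and Cd180, and KO 1 lies above KO 2 in Col3a1, Dcn, Loxl2 and C7.

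Stress and immediate early genes moved in both directions. Amino acid shortage and misfolded protein raise ATF4, which induces genes such as Chac1, an enzyme that degrades glutathione. Chac1 had 34.8 and 28.7 RPKM in WT and 9.32 and 8.30 RPKM in KO, with a log2 change of -1.79 (SE 0.27, adjusted p = 0.0272 in limma), or 0.29-fold. In its list of amino acid and endoplasmic reticulum stress 3 of 37 genes rose and 2 fell, Chac1 included (median 0.287, and 0.163 without KO P60 replicate 1). Sesn2, another gene induced by ATF4, had 3.02 and 2.90 RPKM in WT and 4.08 and 5.43 RPKM in KO (log2 change 0.59, SE 0.15). The lipoprotein receptor gene Vldlr fell by 0.65 (SE 0.17), and the translocon gene Sec61a1 (0.53, SE 0.11) and the disulfide isomerase gene Pdia4 (0.62, SE 0.15) rose. Snai3, a Snail-type repressor, had 17.4 and 10.99 RPKM in WT and 4.33 and 4.31 RPKM in KO (log2 change -1.57, SE 0.29). Its KO values were almost the same.

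Of the immediate early genes 3 of 32 rose and 1 fell (median 0.118, which turned to -0.0379 with median-of-ratios size factors). Nr4a1, a nuclear receptor induced within minutes by many signals, had 68.8 and 79.8 RPKM in WT and 34.1 and 27.3 RPKM in KO (log2 change -1.27, SE 0.25). Fosl2, a partner of AP-1, went the other way, from 10.6 and 11.28 RPKM to 16.3 and 16.8 RPKM (log2 change 0.58, SE 0.11), and Egr2 reached 0.66 (SE 0.16). Circadian clock genes had 1 of 20 that rose and 2 that fell (median 0.04, which turned to -0.113 with median-of-ratios size factors, -0.0746 with quantile normalization and -0.027 without WT P60 replicate 2). The repressor genes Nfil3 and Bhlhe40 fell, Nfil3 from 9.51 and 7.05 RPKM to 4.28 and 5.23 RPKM (log2 change -0.73, SE 0.18) and Bhlhe40 by 0.41 (SE 0.10). Arntl, the activator of the clock, rose by 0.50 (SE 0.13). Times of tissue collection are not given in the sources used here. Cell division genes rose in 2 of 30 cases, a share under the 8.94% of all genes (median 0.349, and 0.171 without KO P60 replicate 1), the mitotic kinase gene Aurkb (log2 change 0.94, SE 0.16) and E2f1, a factor of S phase entry (0.57, SE 0.11). Cytoplasmic ribosomal protein genes had 0 of 42 called in limma in either direction (2 at an unadjusted p under 0.05), held 7.25% to 7.73% of the summed RPKM in the 4 libraries, and had a median of -0.0747 that turned to 0.0383 with quantile normalization and 0.0256 without KO P60 replicate 1.

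The same contrast in newborn skin gave the nearest comparison of the series. The difference between the change at P60 and the change at P1 was tested gene by gene in the same model, and 0 of the 12561 genes passed (0%), with a smallest adjusted p of 0.0878 and 3094 genes (24.6%) at an unadjusted p under 0.05. This count was 762 without KO P60 replicate 2, 266 without WT P60 replicate 2 and 459 with array weights. The ages also differ in run and in sex-linked RNA: Y-linked genes were expressed in all 4 P60 libraries but, at P1, in KO replicate 2 alone, the library without which 0 genes were called at P60. The part of run and sex in the spread and in the difference between ages cannot be told apart from that of age. At P1 the change of Spred2 was 0.17, that of Chac1 0.11, that of Col1a2 -0.04 and that of Lmod2 0.32 on the log2 scale. List medians at P1 were -0.0123 for fibrillar collagens, -0.0694 for macrophages and 0.0474 for thin filament genes, against 1.21, 0.97 and -0.867 at P60. These pairs of values are given side by side, since no gene passed the test of the difference with all libraries in the fit.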

How the data were processed

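Total RNA of whole dorsal skin was sequenced on a HiSeq3000, per the labels' protocols. Reads were aligned to mm10 with TopHat2 2.1.0 and summarised in Partek, per the submitters' processing notes (no Partek version or gene annotation stated). The authors deposited RPKM per gene, normalized by gene length and library depth, and a count of alignments per library. The authors' deposited comparison holds group means of log2 RPKM, a ratio of KO over WT and p-values. RPKM keeps no counts for genes, so no interval for counting error is given.

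Here, 0.5 was added to RPKM before log2. Genes with 1 RPKM or more in 2 or more of the 10 libraries (14026) entered limma 3.58.1 in R 4.3.3, with 4 group means and a mean-variance trend. Adjusted p-values are from limma with the Benjamini-Hochberg method, two-sided, called under 0.05. The procedure was tested on simulated data with independent noise for each gene. Deviations shared by many genes of a library were not simulated. The 22 alternatives changed the libraries, pseudocount, filter, scaling, moderation, weights or block, or left out each of the 10 libraries. Members and the 65 gene lists (1511 symbols, 1148 of them expressed at P60) were chosen with earlier results of these data known, and some lists share genes with other cell types of skin. Named genes follow a rule: the Dlx genes, the called genes of largest change, highest level and smallest p, and the called genes of smallest p in each list. Krt10, Acta1, Fbxo32, Vldlr, Cd180, Clec7a, Tnfrsf14, Eif2s3y, Ddx3y, Ckm, Adipoq and C3 were named after their values had been seen. Each age was sequenced in a run of its own, and the ages differ in sex-linked RNA, so age, run and sex cannot be told apart.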

Additional observations from a re-analysis of the deposited data

How the results depend on the processing

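Counts of called genes moved with most settings, from 1123 higher and 407 lower as reported. They were 0 higher and 0 lower with the 4 P60 libraries alone, 320 and 91 with no expression filter, 436 and 1052 with median-of-ratios size factors, 19 and 36 with quantile normalization, and 570 and 168 with array weights. Leaving out 1 library gave 0 to 1691 higher and 0 to 767 lower. Both pseudocounts, the filter on P60 alone, scaling without muscle genes, no trend and robust moderation moved neither count by over 1.5 times. The count of genes that differed between ages, 0 as reported, was 2 with a pseudocount of 0.1, 8 with no filter, 3 with median-of-ratios size factors, 459 with array weights and 0 to 762 with 1 library left out, the highest without KO P60 replicate 2 (266 without WT P60 replicate 2). With the replicate number as a block 2 genes were higher, 0 lower and 0 differed between ages. The labels do not say whether same-numbered samples share more than a number. Their deviations correlated at 0.242 at P60 with 2 pairs, and at -0.223, 0.153 and -0.326 at P1. The change of Dlx3, not called under any setting, was -0.0789 with median-of-ratios size factors, -0.101 with quantile normalization, and -0.125 to 0.258 with 1 library left out. Of the values of 111 single genes, 947 under the settings that left out no library and 518 under those that did had the direction and side of the threshold reported, while 382 and 586 had the direction reported without passing. The cause of these movements was not tested.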

Other observations

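Families taken from the start of the gene symbol, a grouping added after the data were seen, showed that lower values reached beyond the muscle lists. Of 46 expressed Nduf genes, which encode subunits and assembly factors of complex I, 18 fell and 0 rose, against 3.24% of all genes that fell and 8.94% that rose (median log2 change -0.534, and -0.347 without KO P60 replicate 1). Of 49 Mrpl genes, proteins of the large subunit of the mitochondrial ribosome, 7 fell and 0 rose. Their median was -0.308, and -0.463 with median-of-ratios size factors and -0.2005 without KO P60 replicate 1. Of 29 Mrps genes of the small subunit 5 fell and 0 rose (median -0.287, and -0.446 with median-of-ratios size factors). Of 47 Psm genes of the proteasome 3 fell and 0 rose. Their median was -0.146, and -0.303 with median-of-ratios size factors and -0.097 without WT P60 replicate 1. Asb genes, adaptors of ubiquitin ligases of which several are expressed in muscle, fell in 6 of 15 cases and rose in 0. Their median was -0.711, and -0.464 without KO P60 replicate 1. Cytoplasmic ribosomal proteins had 0 of 42 called in limma.

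Among families with higher values, C-type lectin genes, the Clec family of pattern receptors, rose in 7 of 14 cases and fell in 0 (median 0.877). Zinc finger genes named Zfp rose in 9 of 256 cases and fell in 1 (median 0.122, which turned to -0.00157 with median-of-ratios size factors and -0.0586 with quantile normalization).

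Some abundant genes were not called, and their P60 replicates differed widely. Ckm, the muscle creatine kinase, had 6439.9 and 8134 RPKM in WT and 2602 and 5142 RPKM in KO (log2 change -0.98, adjusted p = 0.202 in limma). Adipoq, the adipocyte hormone adiponectin, had 19.0 and 59.4 RPKM in WT and 74.7 and 88.1 RPKM in KO (log2 change 1.26, adjusted p = 0.0898 in limma). C3, the central complement protein, had 19.1 and 63.4 RPKM in WT and 78.5 and 108 RPKM in KO (log2 change 1.38, adjusted p = 0.0895 in limma). In Adipoq and C3 the lowest value was that of WT replicate 1, and in Ckm it was that of KO replicate 1.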
